A study of Homo sapiens with 4 samples.

Results

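A list of monocyte identity markers, 10 genes used to recognise monocytes and macrophages, was followed in MOLM-14. This human cell line derives from acute myeloid leukemia, looks monocytic, and carries a KMT2A fusion and an internal tandem duplication of FLT3. The members are MPEG1, FCER1G, TYROBP, CD14, FCN1, CD4, CD68, AIF1, MNDA and VCAN, chosen by name as monocyte identity markers, and all 10 of 10 were measured among 18377 genes. In that order the genes lie on chromosomes 11, 1, 19, 5, 9, 12, 17, 6, 1 and 5. Where several probe sets had a gene's symbol alone, the one with the highest mean log2 intensity over the 4 arrays was used. In the DZNep group, 2 samples of the line were given 2 µM DZNep (3-deazaneplanocin A) for 24 h, and in the DMSO group 2 samples had the solvent alone. DZNep blocks S-adenosylhomocysteine hydrolase and thereby hinders methyltransferases, among them the Polycomb enzyme EZH2. Each sample was hybridised to 1 Affymetrix whole-transcript array. The labels name the samples biological replicates without saying whether they came from separate cultures, so the spread that p-values measure is that between these samples and may be technical.

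Monocytes are blood phagocytes that sense microbes through surface receptors, engulf them and degrade them in lysosomes. Several of the markers work in that chain: CD14 binds bacterial lipopolysaccharide, ficolin-1 (FCN1) binds microbial sugars, the adaptors FCER1G and TYROBP carry activating signals from receptors that have no signalling tail, and MPEG1 (perforin-2) forms pores in membranes of engulfed bacteria. In myeloid leukemia the same genes serve as signs of monocytic maturation. As bulk RNA was measured, fewer cells of a kind and less RNA per cell cannot be told apart.

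Part of the genes read to check for a monocytic line were bright here. LYZ, the lysozyme gene, had log2 intensities of 12.82 and 12.72 on the DZNep arrays and 12.15 and 12.32 on the DMSO arrays, and SPI1, which encodes the myeloid transcription factor PU.1, lay between 9.18 and 9.28 on all 4. CSF1R, the receptor for the monocyte growth factor, was dimmer, at 7.99 and 7.97 with DZNep and 7.50 and 7.53 with DMSO. ITGAM was at 7.97 and 7.97 with DZNep, against 8.28 and 8.11 with DMSO. CD36 had 9.97 and 9.95 with DZNep, against 9.05 and 8.82 with DMSO. CD86 had 8.45 and 8.37 with DZNep, against 7.04 and 6.87 with DMSO. CTSS lay between 9.33 and 9.52 on all 4 arrays, and CD33 was not analysed here. FLT3, the receptor kinase gene this line carries in mutant form, had 10.93 and 10.91 with DZNep, against 11.94 and 11.79 with DMSO. FCER1G, VCAN, FCN1 and CD14 were among the dimmer genes of the table, at percentiles 25.9, 21.1, 35.7 and 36.9 of mean log2 intensity, while TYROBP, CD4, CD68, AIF1 and MPEG1 lay at percentiles 84.7 to 96.1 and MNDA at 52.9. Probe sets differ in how strongly they bind, so these positions describe signal and not the order of transcript amounts.

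With DZNep, MPEG1 and FCER1G rose, and none of the 10 genes fell by the same test (limma, adjusted p of 0.05 over all genes). MPEG1 was 3.56-fold and FCER1G 1.45-fold higher. At an unadjusted limma p under 0.05, 5 of the 10 were higher, beside 9.43% of all genes, and 2, CD68 and AIF1, were lower, beside 12.7% of all genes. The other 8 missed the threshold, with log2 fold changes from −0.38 for CD68 to 0.33 for CD14. Over all genes tested, 3.62% were called higher and 6.68% lower, 10.3% in either direction. So 2 of 10 higher stands beside a share of 3.62%, and the counts of every list below stand beside the same shares. The median log2 fold change of the 10 genes was 0.21, beside 0.021 over all genes. Both DZNep arrays lay above both DMSO arrays for 5 of the 10 genes, beside 25.9% of all genes, and below them for 2, beside 23.9% of all genes. The remaining 3 overlapped. The members and the lists below were chosen with earlier results known, so their counts describe the lists and do not test them. Precision is limited by the small number of arrays.

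**Figure D1:**
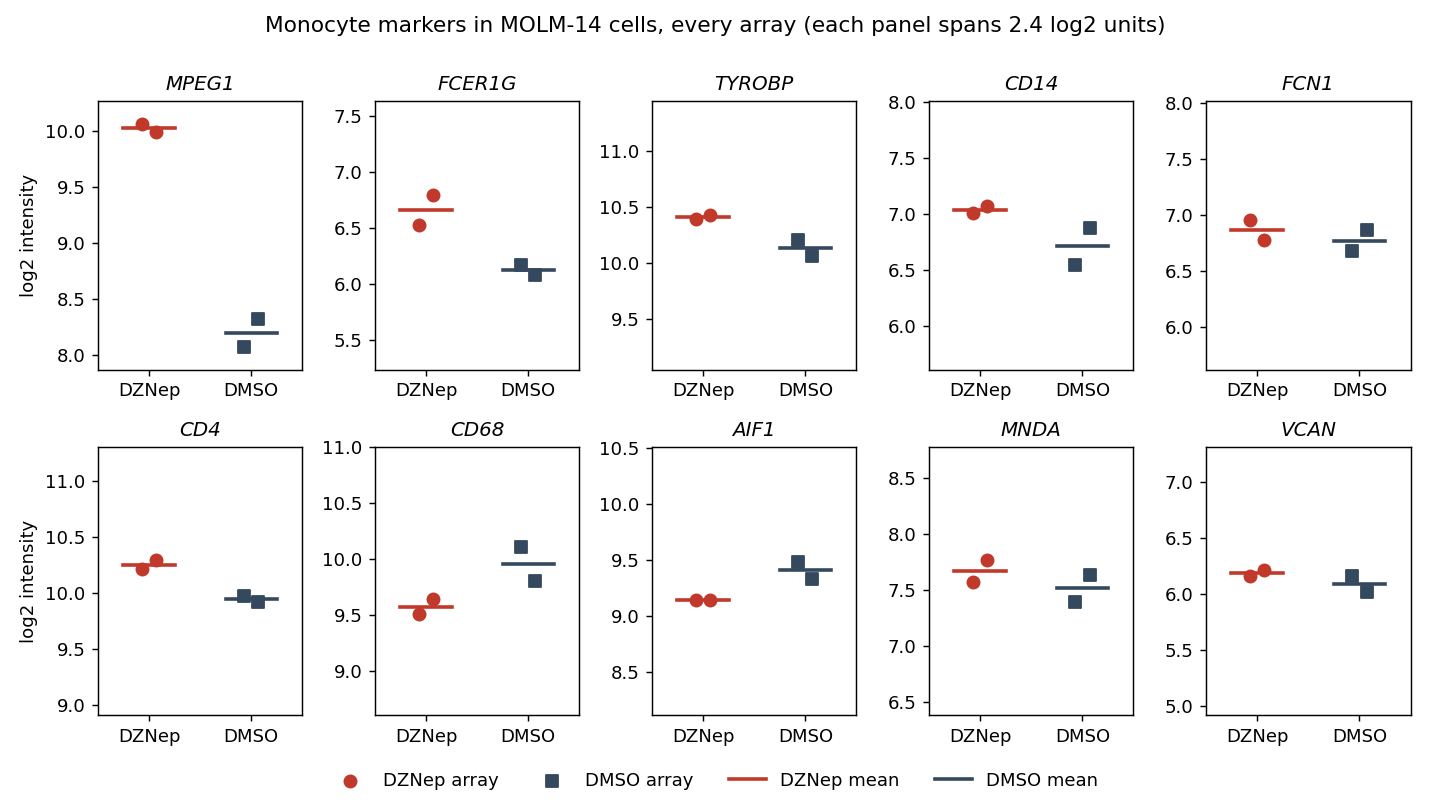
Log2 intensity (vertical axis) of each marker on the 2 DZNep arrays (red circles) and the 2 DMSO arrays (dark squares), with horizontal lines at the group means and every panel spanning the same range. MPEG1 has DZNep values near 10.03 and DMSO values of 8.08 and 8.32, while FCN1, MNDA and VCAN overlap between the groups.

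MPEG1 set itself apart from the other 9 markers by the size of its change. Its log2 intensity was 10.07 and 10.00 on the DZNep arrays, against 8.08 and 8.32 on the DMSO arrays. In deposited intensity units these are 1072 and 1021 with DZNep, against 269.9 and 320.6 with DMSO. Both DZNep values lay above both DMSO values by a gap of at least 1.67 log2 units, and the larger distance within a group was 0.25, between the DMSO arrays. The means were 10.03 ± 0.05 with DZNep and 8.20 ± 0.18 with DMSO (SD, n = 2 arrays each), which gives a log2 fold change of 1.83 with SE 0.11 (adjusted p from limma = 4.47e-05). The 95% interval of the change ran from 1.58 to 2.08, above the upper bound of every other marker, the highest of which was 0.79 for FCER1G. The difference between 2 markers' changes was not itself tested. MPEG1 ranked at position 10 of 18377 genes by log2 fold change. Its call held under all 16 alternatives tried, with values from 1.71 to 1.95.

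The genes with the profile nearest to that of MPEG1 over the 4 arrays, by Euclidean distance of centred log2 values, were ABCA9, TNF, GPR183, CCNA1 and ADTRP. ABCA9, a lipid transporter of the ABC family, was nearest at a distance of 0.15, with a log2 fold change of 1.83. TNF, the inflammatory cytokine, followed at 0.20 and the oxysterol receptor GPR183 at 0.23. CCNA1, a cyclin A gene, stood at 0.25 and the membrane protein gene ADTRP at 0.42. With 4 arrays in 2 groups, this likeness is mostly that of the size of the change. None of the other 9 markers was near MPEG1 on this scale, as none had a change over 0.54.

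FCER1G and TYROBP are both signalling adaptors. FCER1G is the common gamma chain of Fc receptors, and TYROBP, also called DAP12, serves TREM and related receptors. Both hold an immunoreceptor tyrosine-based activation motif (ITAM) in the cytoplasm, which the kinase SYK reads. Log2 intensities of FCER1G were 6.52 and 6.79 on the DZNep arrays, against 6.17 and 6.08 on the DMSO arrays. The groups did not overlap, with DZNep replicate 2 the highest, and the distance of 0.27 between the DZNep arrays was the widest any of the 10 genes had in that group. Means were 6.66 ± 0.19 with DZNep and 6.12 ± 0.06 with DMSO (SD, n = 2 arrays each), which gives a log2 fold change of 0.54 with SE 0.11 and a 95% interval of 0.28 to 0.79 (adjusted p from limma = 0.0169). FCER1G no longer passed when DZNep replicate 2 was left out, at 0.40 (adjusted p = 0.182 in limma), or when DMSO replicate 2 was, at 0.49 (0.0561).

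TYROBP had log2 intensities of 10.39 and 10.43 with DZNep, against 10.21 and 10.07 with DMSO. Both DZNep arrays were above both DMSO arrays, by 0.19 at the nearest point. The log2 fold change of 0.27 (SE 0.10, 95% interval 0.05 to 0.50) missed the threshold (limma adjusted p = 0.124). It passed after quantile normalization, at 0.37 (limma adjusted p = 0.0275), after cyclic loess, at 0.35 (0.0348), and with an intensity trend in the spread (0.0247). The interval of TYROBP overlaps that of FCER1G, and whether the adaptors differ in their change was not tested.

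The 250 bases before the RefSeq start of 4 genes are shown because they set the adaptor pair side by side, and because CD14 and CD68 had values of opposite sign. Windows were available for 8 of the 10 members, with AIF1 in 2 windows, from RefSeq on build GRCh38.p14. FCER1G lies at chr1:161215045-161215294 on the plus strand, TYROBP at chr19:35908296-35908545 on the minus strand, CD14 at chr5:140633176-140633425 on the minus strand and CD68 at chr17:7579388-7579637 on the plus strand. Each is written 5′ to 3′ on the strand of its gene, and capitals mark matches on either strand to a PU.1 core (GAGGAAGT), a loose C/EBP pattern (TTNNGNAA) or an AP-1 site (TGANTCA).
FCER1G: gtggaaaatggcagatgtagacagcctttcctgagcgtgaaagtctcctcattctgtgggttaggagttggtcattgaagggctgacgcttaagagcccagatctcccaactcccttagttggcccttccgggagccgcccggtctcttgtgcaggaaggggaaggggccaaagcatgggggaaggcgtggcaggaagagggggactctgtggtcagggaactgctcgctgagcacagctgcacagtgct
TYROBP: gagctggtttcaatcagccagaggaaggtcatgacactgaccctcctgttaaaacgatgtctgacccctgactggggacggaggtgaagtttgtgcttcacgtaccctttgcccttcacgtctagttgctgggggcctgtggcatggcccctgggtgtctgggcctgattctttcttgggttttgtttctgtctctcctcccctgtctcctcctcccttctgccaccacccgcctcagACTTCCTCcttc
CD14: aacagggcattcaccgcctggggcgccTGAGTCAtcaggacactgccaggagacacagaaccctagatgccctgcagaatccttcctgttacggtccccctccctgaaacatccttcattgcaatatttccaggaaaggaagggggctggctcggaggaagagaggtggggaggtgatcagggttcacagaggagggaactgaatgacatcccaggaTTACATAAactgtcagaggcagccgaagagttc
CD68: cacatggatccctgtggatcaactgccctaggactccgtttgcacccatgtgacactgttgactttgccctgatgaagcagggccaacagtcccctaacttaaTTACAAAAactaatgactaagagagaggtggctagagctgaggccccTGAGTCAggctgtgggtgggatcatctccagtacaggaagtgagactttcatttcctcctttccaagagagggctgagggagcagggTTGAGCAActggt

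Of these letters, FCER1G held none of the 3 patterns in its window, and TYROBP held the PU.1 core starting 12 bases before the gene start. AIF1 was the other member with that core, so 2 of 8 members held it, beside 2.17% of 35116 windows in the table. A member counted if any of its windows held a match, over 9 windows in all, while each share is per window. The AP-1 site, which reads the same on both strands, stood in the windows of CD14 and CD68, 2 of 8 members, beside 6.57% of all windows. Matches to the C/EBP pattern were found for 5 of 8 members and 33.2% of all windows. The AP-1 matches began 223 bases before the start of CD14 and 100 bases before that of CD68. No match overlapped one of another pattern in the 4 windows shown. A match describes letters only and says nothing of whether a factor binds there.

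The microbe-sensing markers CD14 and FCN1 did not pass the test. CD14, the lipopolysaccharide co-receptor of TLR4, had log2 intensities of 7.01 and 7.07 with DZNep, against 6.55 and 6.88 with DMSO. Its groups did not overlap, yet the distance of 0.33 between the DMSO arrays equalled the log2 fold change of 0.33 (SE 0.12, 95% interval 0.06 to 0.60, adjusted p from limma = 0.133). That value depended on which DMSO array was used: leaving out DMSO replicate 2 gave 0.49 (adjusted p from limma = 0.0205) and leaving out DMSO replicate 1 gave 0.17 (0.34). FCN1, a secreted and surface-bound ficolin that starts the lectin pathway of complement, had 6.95 and 6.78 with DZNep, against 6.68 and 6.86 with DMSO. Its groups overlapped, with a log2 fold change of 0.094 (95% interval −0.15 to 0.34, limma adjusted p = 0.713). With 1 array left out, FCN1 lay between 0.0044, without DMSO replicate 1, and 0.18, without DMSO replicate 2, and at 0.0076 without DZNep replicate 1.

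CD4, best known as the co-receptor of helper T cells, is also made by human monocytes. Its log2 intensities were 10.22 and 10.30 with DZNep, against 9.97 and 9.93 with DMSO. Arrays of a group lay within 0.08 of each other and the groups were 0.24 apart. The log2 fold change of 0.31 (SE 0.09, 95% interval 0.09 to 0.52) stayed short of the threshold (adjusted p from limma = 0.0759). CD4 passed after quantile normalization, at 0.40 (0.02), after cyclic loess, at 0.38 (0.0263), and with an intensity trend (0.0117). The T cell receptor chains CD3D, CD3E and CD3G had log2 intensities between 5.78 and 6.46 over the 4 arrays. Summed over 15 T cell markers other than CD4, deposited intensity was 2028 and 1958 with DZNep and 1744 and 1938 with DMSO. Of these 15, CD6 was called higher at 0.48, which no longer passed when DZNep replicate 1 (adjusted p from limma = 0.238) or DMSO replicate 1 (0.126) was left out, or with 16 subtracted from each intensity (0.0704). The part of other cells in the CD4 value was not tested.

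CD68 and AIF1 were the 2 markers with lower DZNep values. CD68 encodes a heavily glycosylated protein of lysosomes and endosomes and is the usual stain for macrophages. Its log2 intensities were 9.51 and 9.64 with DZNep, against 10.11 and 9.80 with DMSO. The groups were 0.16 apart, less than the 0.30 between the DMSO arrays. The log2 fold change of −0.38 (SE 0.12, 95% interval −0.65 to −0.11) missed the threshold (limma adjusted p = 0.0826). It passed with an intensity trend (0.0176) and without DMSO replicate 2, at −0.53 (0.0219), and stood at −0.23 without DMSO replicate 1 (0.233). AIF1, or IBA1, an actin-binding calcium sensor of macrophages and microglia, had 9.15 and 9.14 with DZNep, against 9.49 and 9.34 with DMSO. Its log2 fold change was −0.27 (SE 0.10, 95% interval −0.49 to −0.04, limma adjusted p = 0.138). The 3 probe sets of AIF1 each gave −0.27, with near-equal values on every array, and list the same accessions, so they are not independent measurements.

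MNDA and VCAN did not separate the groups. MNDA, a nuclear protein of the interferon-induced PYHIN family, had log2 intensities of 7.57 and 7.76 with DZNep, against 7.39 and 7.63 with DMSO. Each group spanned 0.19 or more and the groups overlapped, with a log2 fold change of 0.16 (95% interval −0.11 to 0.42, limma adjusted p = 0.523), and with 1 array left out lay between 0.036, without DMSO replicate 1, and 0.27, without DMSO replicate 2. VCAN, the matrix proteoglycan versican that classical monocytes express, had 6.16 and 6.21 with DZNep, against 6.16 and 6.02 with DMSO. It overlapped by a narrow margin, with a log2 fold change of 0.095 (95% interval −0.13 to 0.32, limma adjusted p = 0.674), and with 1 array left out lay between 0.023, without DMSO replicate 2, and 0.17, without DMSO replicate 1. The intervals of FCN1, MNDA and VCAN reach no higher than 0.42, below the lower bound of MPEG1 at 1.58.

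**Figure D2:**
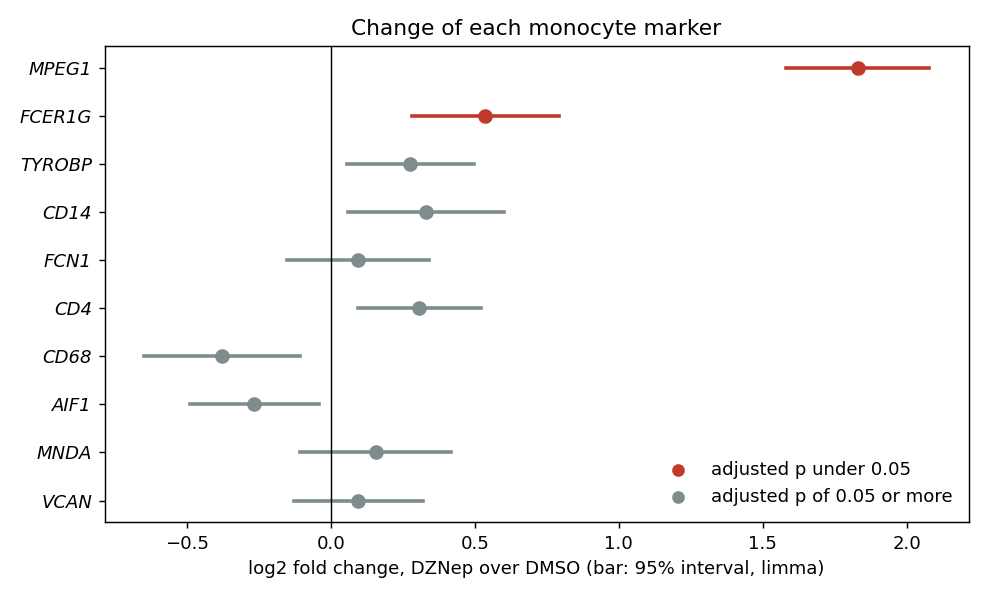
Log2 fold change of DZNep over DMSO (horizontal axis) for each marker, with the 95% interval from limma as a bar. Red marks adjusted p under 0.05, reached by MPEG1 at 1.83 and FCER1G at 0.54, and grey marks the other 8, of which CD68 and AIF1 lie below 0.

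Of the receptors that signal through FCER1G or TYROBP, few passed the test. Of 21 measured, 2 were called higher and none lower, with a median log2 fold change of 0.10, which was 0.015 without DZNep replicate 1 and 0.045 without DMSO replicate 1. They were LILRA1, an activating leukocyte immunoglobulin-like receptor, at 0.57 (limma adjusted p = 0.0145), and CD300C, an activating receptor of the CD300 family, at 0.44 (0.0171). LILRA1 lost its call without DZNep replicate 1, at 0.44, or DMSO replicate 1, at 0.48. CD300C lost its call without DZNep replicate 1, at 0.42, or DZNep replicate 2, at 0.46. The TREM receptors served by TYROBP did not pass, with −0.12 for TREM1 and overlapping groups for TREM2, both named after their values were seen.

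The enzymes and adaptors downstream of the ITAM moved both ways. Of 15 measured, 3 were called higher and 2 lower, with a median of 0.10, or 0.037 without DMSO replicate 2. FYN, a Src-family kinase, fell by 1.19 on the log2 scale, with 8.68 and 8.84 on the DZNep arrays, against 10.12 and 9.77 on the DMSO arrays (limma adjusted p = 0.000639). BTK, the Bruton tyrosine kinase, fell by 0.64 on the log2 scale (0.00554). Both falls held under every alternative tried. BCL10, which links receptors to NF-κB, was called higher at 0.47 (0.0177), and LCP2, the scaffold SLP-76, at 0.45 (0.0176). Both lost their call whichever DZNep array was left out, with little change in size. Without DZNep replicate 1 and without DZNep replicate 2, BCL10 stood at 0.44 and 0.49, and LCP2 at 0.44 and 0.46. LYN, another Src-family kinase, was called higher at 0.39 (0.0395), lost whichever DZNep array, or DMSO replicate 2, was left out and with 16 subtracted from each intensity, and was named after its value was seen. SYK itself had −0.066 (limma adjusted p = 0.781), also named after its value was seen.

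On the CD14 side, the receptor TLR4 and its adaptor MYD88 were called higher, 2 of 14 measured pathway genes with none lower and a median of 0.11, or 0.041 without DMSO replicate 2 and 0.067 without DZNep replicate 1. TLR4 had 8.44 and 8.48 with DZNep, against 8.14 and 8.03 with DMSO, a change of 0.38 on the log2 scale (adjusted p from limma = 0.0368). MYD88 had one of 0.39 (0.0315). Both calls ended whichever DZNep array was left out and with 16 subtracted from each intensity. Without DZNep replicate 1 and without DZNep replicate 2, TLR4 stood at 0.40 and 0.36, and MYD88 at 0.35 and 0.44. The call of TLR4 also ended without DMSO replicate 2, at 0.32, and that of MYD88 without DMSO replicate 1, at 0.36.

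Relatives of the other markers were mostly uncalled. None of 11 proteins with the membrane attack and perforin fold other than MPEG1 passed, with a median of 0.015 that lay between −0.048 and 0.13 with 1 array left out, and PRF1, the perforin of killer cells, had 0.27 (limma adjusted p = 0.144). None of 4 genes of the LAMP family, to which CD68 belongs, passed. LAMP1, a main lysosome membrane protein, had 0.31 (0.0701) and passed after quantile normalization, at 0.38 (0.0275), after cyclic loess, at 0.36 (0.0327), and with an intensity trend (0.0172). LAMP5 had −0.044, or 0.051 after quantile and 0.037 after cyclic loess normalization. None of 3 other PYHIN genes passed, with IFI16, a DNA sensor, at 0.17, nor any of 7 lectin pathway genes, with FCN2 at 0.035. At an unadjusted limma p under 0.05, PRF1 and LAMP1 were the genes of these 4 families that were higher, and none was lower. At that limit 9.43% of all genes were higher and 12.7% lower. Of 9 genes for AIF1's relative and actin bundlers, PLS1, a plastin, was called lower at −0.41 (0.0349), which no longer passed when DMSO replicate 1 (0.0945) or one of the DZNep arrays (up to 0.261) was left out.

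Among the relatives of VCAN, the genes called were proteases that cleave versican. Of 14 relatives, hyaluronan partners and proteases measured, 2 were called higher and none lower, with a median of 0.052, which lay between 0.014, without DMSO replicate 1, and 0.088, without DMSO replicate 2. ADAMTS1 had 10.14 and 9.79 with DZNep, against 7.40 and 7.74 with DMSO, a change of 2.39 on the log2 scale (adjusted p from limma = 4.9e-05). ADAMTS5 had one of 1.16 (0.00032). Both calls held under every alternative, while VCAN itself did not pass under any. The other 12 genes of the list were not called. This list too was chosen with earlier results known, and cleavage of versican was not measured.

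The 38 other monocyte and macrophage markers measured were chosen with earlier results known, so their counts describe the list and do not test it. Of them, 13 rose (34.2%, beside 3.62% of all genes) and 1 fell, with a median log2 fold change of 0.28. Their summed deposited intensity was 22422 and 22174 with DZNep, against 14352 and 14877.5 with DMSO, a sum weighted to bright genes such as LYZ. Both DZNep arrays lay above both DMSO arrays for 23 of the 38 and below them for 4, beside 25.9% and 23.9% of all genes. Those below were CSTA, ITGAM, ITGAX and FCGR3A, the last 3 uncalled at −0.22, −0.22 and −0.20. The change was positive for 30 of the 38. Of the called genes, the 4 with the largest change were MS4A6A, CD86, FGL2 and S100A8. FGL2, a fibrinogen-like protein of macrophages, had 9.63 and 9.56 with DZNep, against 8.07 and 8.42 with DMSO, a change of 1.35 on the log2 scale (adjusted p from limma = 0.000291). MS4A6A, a membrane protein of monocytes, had one of 2.55, the costimulatory ligand CD86 of 1.45 and the calgranulin S100A8 of 1.24. The 1 that fell was CSTA, a cysteine protease inhibitor, at −0.58 (0.0303), named after its value was seen, and its call ended without DMSO replicate 1, at −0.36 (0.0758), and with 16 subtracted from each intensity (0.0709). Whether the 10 markers and these 38 differ in their share of rises was not tested.

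**Figure D3:**
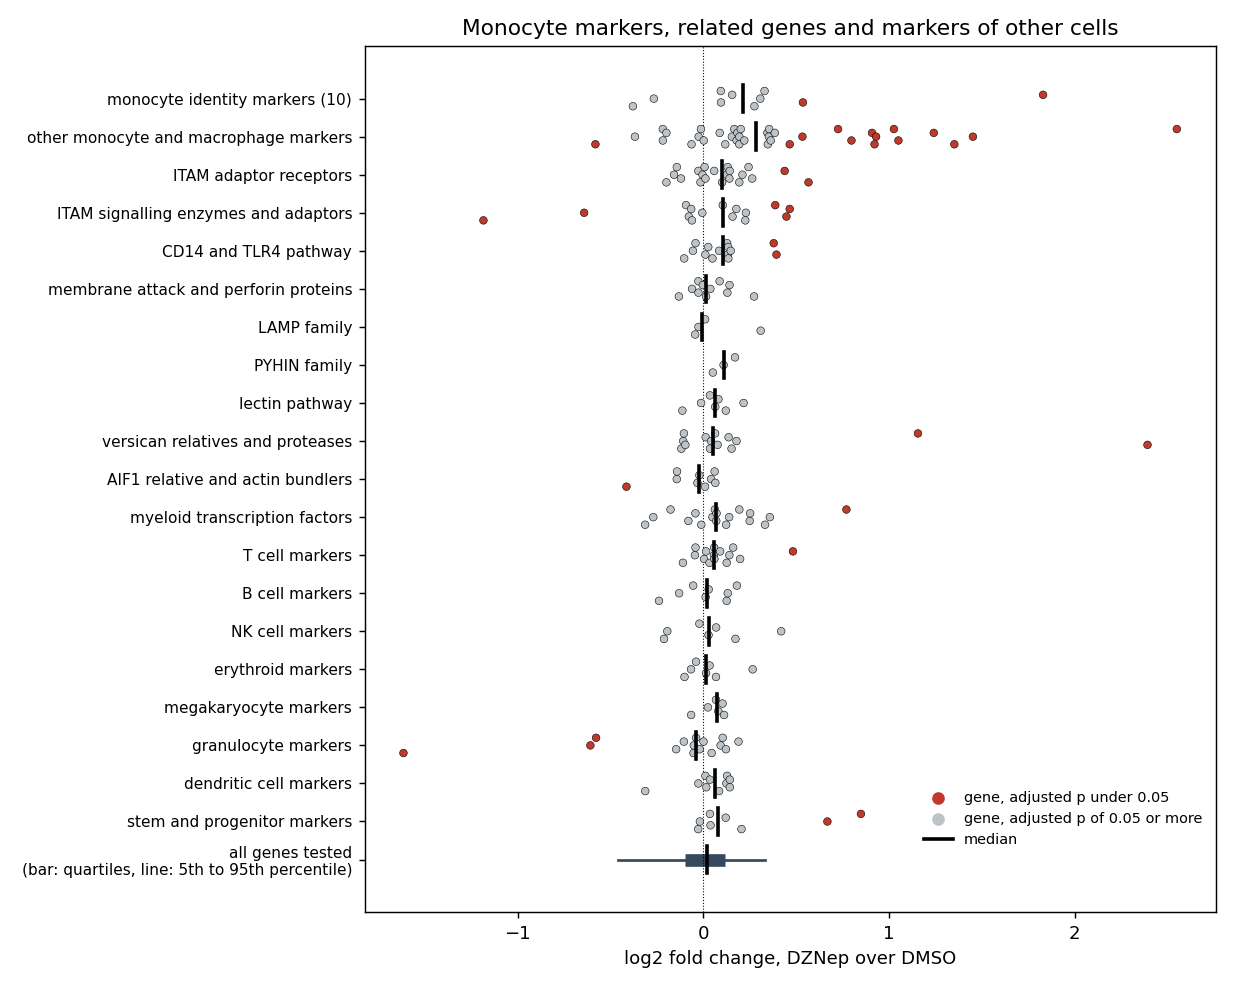
Log2 fold change of DZNep over DMSO (horizontal axis) for every gene of each list, with red points for adjusted p under 0.05, grey points for the rest and a black bar at the median. In the bottom row, all genes tested are shown by their median, their quartiles (−0.10 to 0.12, thick bar) and their percentiles 5 to 95 (−0.46 to 0.33, thin line), and MPEG1 and FCER1G are the 2 red points of the top row.

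Among 18 myeloid transcription factors, 1 was called higher (5.56%, beside 3.62% of all genes) and none lower, with a median of 0.070. The higher count was 2 or 3 under 6 of 15 alternatives, among them the intensity trend, and 1 was lower without DMSO replicate 1. At an unadjusted limma p under 0.05, 5 were higher (CEBPA, ID2, KLF4, MITF and SPIB), beside 9.43% of all genes. At the same limit 2 were lower (EGR1 and GFI1), beside 12.7% of all genes. The 1 called gene was ID2, an inhibitor of helix-loop-helix factors, at 0.77 (limma adjusted p = 0.00193). SPI1, whose product PU.1 drives many monocyte genes, had 0.062 (0.787). Of 15 granulocyte markers, 3 were called lower (20%, beside 6.68% of all genes) and none higher, with a median of −0.039. That median lay between −0.095 and 0.017 with 1 array left out. The change was positive for 6 of the 15, and the groups overlapped for 9. Those called were BPI at −1.62, CTSG at −0.61 and PRTN3 at −0.58. Summed deposited intensity of the granulocyte list was 7443 and 7359.9 with DZNep, against 8681 and 9161 with DMSO. Such sums are weighted to the brightest genes. PRTN3, the brightest here, had log2 intensities of 10.96 and 10.87 with DZNep, against 11.38 and 11.60 with DMSO. CTSG lost its call without DMSO replicate 1 (0.0504) and with 16 subtracted (0.0551). Of 8 stem and progenitor markers, KIT, the stem cell factor receptor, was called higher at 0.85 (0.00145) and GATA2, a transcription factor of early progenitors, at 0.67 (0.00826). These 2 were 25% of the list, beside 3.62% of all genes, and the other 6 were not called. The median of the 8 was 0.079, and between 0.042 and 0.17 with 1 array left out. Summed intensity of these 8, of which GATA2 was the brightest, was 821.3 and 852.9 with DZNep, against 621.8 and 663.8 with DMSO. None of 8 B cell, 7 NK cell, 7 erythroid, 6 megakaryocyte and 10 dendritic cell markers was called in either direction. At an unadjusted limma p under 0.05, 2 were higher, GNLY and HBD, beside 9.43% of all genes, and 1 lower, BATF3, beside 12.7%. GNLY, the granulysin of killer cells, had 0.42 (limma adjusted p = 0.0704) and passed under 7 of 15 alternatives, quantile (0.0497) and cyclic loess (0.0497) normalization among them, and BATF3 at −0.31 passed under 1 of 15. Their brightest members were TNFRSF13C, NKG7, KLF1, GP9 and IL3RA, with log2 fold changes of 0.012, −0.21, 0.034, −0.066 and 0.035. The part of these lists in the values of the 10 markers was not tested.

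**Figure D4:**
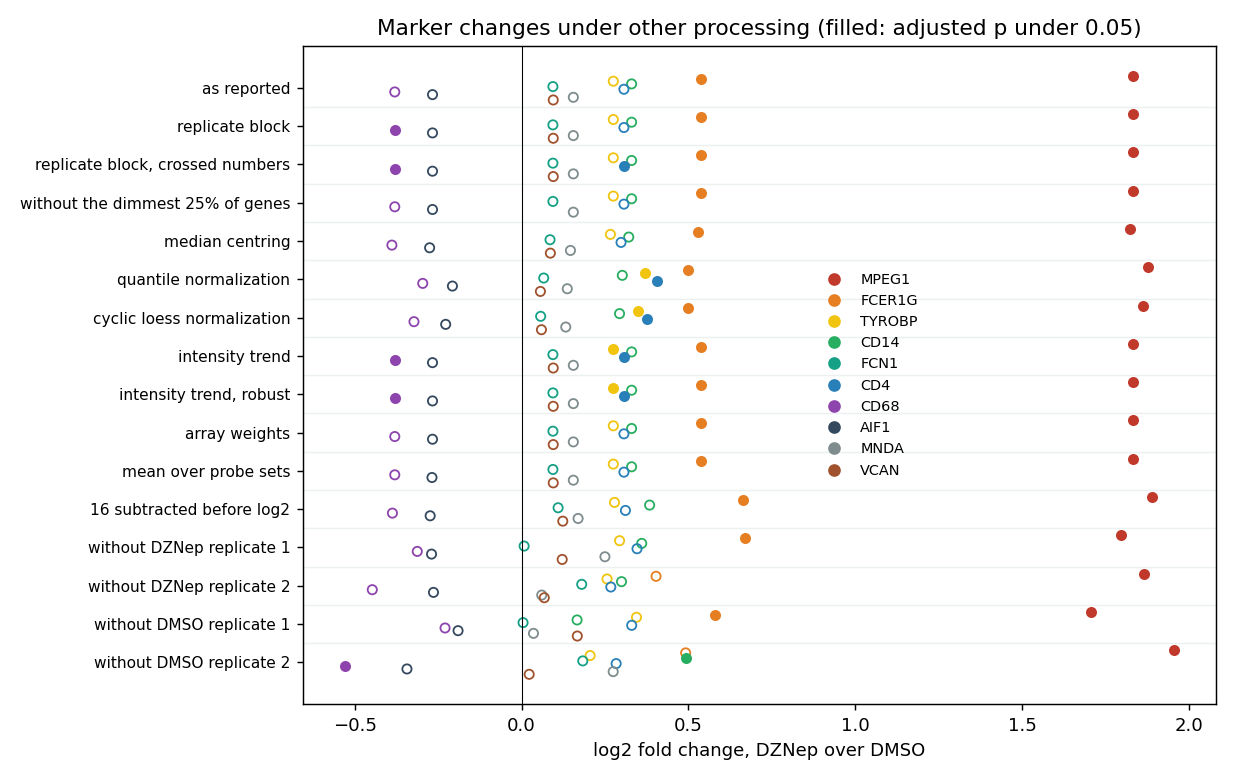
Log2 fold change of DZNep over DMSO (horizontal axis) for each marker as reported (top row) and under each alternative (other rows), with filled circles for adjusted p under 0.05 and open circles for the rest. MPEG1 stays between 1.71 and 1.95 and filled throughout, FCER1G is open without DZNep replicate 2 or DMSO replicate 2, and no marker changes sign.

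Across the processing alternatives, the signs of all 10 markers held, and their calls differed in how much they depended on single arrays and settings. MPEG1 was called under 16 of 16 alternatives and FCER1G under 14 of 16. CD4 and CD68 were called under 5 of 16 each, TYROBP under 4 and CD14 under 1. FCN1, MNDA and AIF1 were called under none, nor was VCAN in the 15 that kept it, as it lay among the dimmest 25% of genes. The DMSO arrays differed more from each other (SD of the log2 difference over all genes 0.20) than the DZNep arrays did (0.14), and between groups this SD was 0.27 to 0.32. The widest distances between DMSO arrays among the 10 markers were those of CD14 and CD68, 0.33 and 0.30 log2 units.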

How the data were processed

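RNA of 4 MOLM-14 samples was purified with the miRNeasy kit and made into biotin-labelled sense target for Affymetrix whole-transcript arrays, per the labels' protocols. For each array the deposited table gives linear intensity values per probe set, which the authors summarised with RMA, per the submitters' processing notes. Which software ran RMA is not stated here. Deposited intensities began at 18.1 to 18.5 on every array, and whether a constant was added is not known. Such a constant would make the changes of dim genes such as FCER1G and CD14 too small, so subtracting 16 was tried.

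Log2 of the intensity was taken with no pseudocount, filter or further normalization. Of 28869 probe sets, 19310 have 1 gene symbol in the platform annotation, 1752 have several and 7807 are not listed. The entrez IDs of 19279 matched RefSeq and changed 0 symbols. Two-sided tests of 18377 genes used lmFit and eBayes of limma 3.58.1 (R 4.3.3), with group as the only term and 2 residual and 7.18 prior degrees of freedom. P-values were adjusted by Benjamini-Hochberg across these genes, with a threshold of 0.05. The smallest p of an exact permutation test at this size is 0.333. The fit was tested on simulated data, with 200 changed genes in each of 20 simulations. It recovered 32.1% of log2 changes of 0.5, 98.8% of those of 1 and 99.9% of those of 2. Of its calls, 5.16% were false. A marker that missed the threshold may thus still have changed by a small amount.

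The members and lists were chosen with earlier results of these data known. Named are all members, from each other list up to 4 called genes with the largest change or else the brightest gene, and the 5 genes nearest to MPEG1. Chosen after values were seen, or as cell identity checks, were LYZ, CSF1R, SPI1, FLT3, CD3D, CD3E, CD3G, LAMP1, TREM1, TREM2, SYK, LYN, CSTA, GNLY, HBD, BATF3, CEBPA, KLF4, MITF, SPIB, EGR1 and GFI1. So were ITGAM, CD36, CTSS, ITGAX and FCGR3A. The alternatives were a replicate block, other normalizations (quantile, cyclic loess, median centring), array weights, an intensity trend (robust or not), dropping the dimmest 25% of genes, the mean over probe sets, subtraction of 16, each array left out, and a fit over every probe set. A crossed replicate block was added after seeing the data. Genes of the lists with no single-symbol probe set, CD33 among them, were left out.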

Additional observations from a re-analysis of the deposited data

How the results depend on the processing

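All 10 markers kept their direction under every alternative run, and 144 of 161 marker values also kept their side of the threshold. The other 15 newly passed and 2 no longer did, both of FCER1G. Of the markers, 4 were called higher, in place of 2, after quantile or cyclic loess normalization and with an intensity trend, robust or not. Lower calls numbered 1, in place of 0, with an intensity trend, robust or not, and with the replicate block. When each array was left out in turn, higher calls among the markers ranged from 1 to 2 and lower calls from 0 to 1. Over all genes, higher calls ranged from 336 to 776 and lower calls from 734 to 1662, in place of 665 and 1227, and without DZNep replicate 1 they were 439 and 734, without DZNep replicate 2 336 and 845. A group then holds 1 array, assumed to vary like the other group. The spread is then estimated anew, so a call can end with little change in size, as for BCL10 and LCP2.

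Both groups use the same replicate numbers, and the labels do not say whether same-numbered samples were paired. Deviations of same-numbered arrays correlated at −0.22 over genes, and with the number as a replicate block 754 genes were called higher and 1353 lower, and CD68 passed (limma adjusted p = 0.038). With the numbers crossed, 1034 were called higher and 1690 lower, and 3 markers were higher and 1 lower. Of the 58 other named genes run singly through the alternatives, the following changed sign, all uncalled. ITGAM, ITGAX, FCGR3A, CD36 and CTSS were not among those run. After quantile normalization LAMP5 was at 0.051, CD3D at −0.0062 and SYK at 0.016, and after cyclic loess LAMP5 at 0.037 and CD3D at −0.0031. With 1 array left out, values ranged from −0.024 to 0.094 for FCN2, −0.15 to 0.22 for KLF1, −0.23 to 0.10 for GP9, −0.095 to 0.17 for IL3RA, −0.13 to 0.042 for CD3E, −0.21 to 0.28 for CD3D and −0.080 to 0.070 for TREM2. The causes were not tested. With no detection call per probe set, how far the dimmer markers FCER1G, VCAN, FCN1 and CD14 stand above background is unknown.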
